A study of Mus musculus with 8 samples.

Results

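RNA differences between naive mouse embryonic stem cells with catalytically dead MLL3 and MLL4 (dCD) and wild type (WT) naive cells are described gene by gene. The members were the genes with a log2 fold for dCD minus WT in the authors' deposited table. These were 9781 genes of the 19135 that the table names as nearest to a region of histone H3 lysine 27 acetylation (H3K27ac). Each was set beside naive cells lacking both proteins (DKO) and beside the H3K27ac of its own regions.

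The series itself holds 8 H3K27ac CUT&Tag libraries in 4 groups of 2, namely WT and DKO cells in the naive and in the formative state. CUT&Tag cuts and tags DNA where an antibody has bound a chromatin mark. Per the labels, WT cells were the R1 line and formative cells were collected 63 hours after LIF2i was withdrawn, while no line is named for DKO. H3K27ac in dCD cells was not analysed here. The RNA folds come from libraries outside the series, which also cover a genotype named CKO. The sources used here do not give the line, the number of clones or the culture for these, nor the mutation carried by dCD. Each comparison has 1 value per gene, with no SD, no n and no test, and the depth is unknown.

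Kmt2c and Kmt2d encode MLL3 and MLL4, large nuclear enzymes that place monomethylation on lysine 4 of histone H3 (H3K4me1), mostly at enhancers. They work in a complex that also holds the H3K27 demethylase UTX and adaptor proteins, and they help to bring in the acetyltransferases p300 and CBP. A catalytically dead protein can in principle still assemble that complex but cannot methylate, so the contrast of dCD with DKO addresses what is lost with the enzymatic activity and what is lost with the protein.

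Kmt2c lies on chromosome 5 from 25271798 to 25498783, and Kmt2d on chromosome 15 from 98831669 to 98871204 (mm10, GENCODE vM21). RNA of Kmt2c was at 0.47 in naive dCD and at -1.15 in naive DKO, log2 against WT. RNA of Kmt2d was at -0.07 and -0.72. In formative cells Kmt2c was at -0.07 in dCD and -0.91 in DKO, and Kmt2d at -0.81 and -0.84. In the naive state neither gene was 2-fold lower in dCD, and Kmt2c was 2-fold lower in DKO. Gene folds of this kind check neither a point mutation nor a small deletion.

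Promoter sequences show the kind of start site involved at 5 genes that recur below. The genes named by rule (stated with the methods) were narrowed to those with a window in the RefSeq table (GRCm38.p6) that meets an H3K27ac promoter region. Genes on chromosomes 6, 8 and 18 and genes whose reads may be shared with another locus were left out. Of what remained, the genes shown lead the low side of dCD, the high side of dCD and the high side of dCD minus DKO. The windows run from 250 bases before to 50 after the start and are written 5′ to 3′ on the gene's strand, with CG dinucleotides in capitals.
Oas1a: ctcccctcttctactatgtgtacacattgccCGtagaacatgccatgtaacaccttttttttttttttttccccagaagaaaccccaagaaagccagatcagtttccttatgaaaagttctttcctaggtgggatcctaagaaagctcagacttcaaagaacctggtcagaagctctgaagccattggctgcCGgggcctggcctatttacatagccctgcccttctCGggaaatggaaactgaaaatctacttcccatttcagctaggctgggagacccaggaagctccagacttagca
Klk1: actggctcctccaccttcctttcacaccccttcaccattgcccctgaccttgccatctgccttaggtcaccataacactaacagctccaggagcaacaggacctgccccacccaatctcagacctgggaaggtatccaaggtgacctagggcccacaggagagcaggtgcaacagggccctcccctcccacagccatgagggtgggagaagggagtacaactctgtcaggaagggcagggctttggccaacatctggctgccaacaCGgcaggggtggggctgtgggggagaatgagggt
F5: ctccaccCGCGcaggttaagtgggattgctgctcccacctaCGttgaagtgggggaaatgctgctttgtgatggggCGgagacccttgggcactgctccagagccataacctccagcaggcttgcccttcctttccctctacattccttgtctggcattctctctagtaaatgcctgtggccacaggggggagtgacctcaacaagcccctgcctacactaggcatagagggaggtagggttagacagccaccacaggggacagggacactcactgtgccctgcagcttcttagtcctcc
Cbr3: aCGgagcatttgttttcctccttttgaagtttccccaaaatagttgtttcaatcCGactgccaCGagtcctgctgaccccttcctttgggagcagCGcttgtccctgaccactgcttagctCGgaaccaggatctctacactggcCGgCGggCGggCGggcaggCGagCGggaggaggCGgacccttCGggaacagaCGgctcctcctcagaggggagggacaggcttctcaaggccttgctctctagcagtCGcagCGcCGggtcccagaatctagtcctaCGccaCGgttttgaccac
Gpr4: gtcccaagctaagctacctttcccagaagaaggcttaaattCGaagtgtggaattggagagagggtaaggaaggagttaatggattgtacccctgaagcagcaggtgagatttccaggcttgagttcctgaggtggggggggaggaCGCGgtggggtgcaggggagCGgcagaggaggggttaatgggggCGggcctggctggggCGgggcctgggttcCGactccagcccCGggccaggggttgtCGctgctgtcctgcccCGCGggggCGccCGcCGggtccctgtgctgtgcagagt
Their positions are chr5:120907476-120907775 on the minus strand for Oas1a, chr7:44225110-44225409 on the plus strand for Klk1 and chr1:164151585-164151884 on the plus strand for F5. Cbr3 is at chr16:93682969-93683268 and Gpr4 at chr7:19212288-19212587, both on the plus strand. The windows of Oas1a, Klk1 and F5 hold 3, 1 and 4 CG dinucleotides, against 19 for Cbr3 and 14 for Gpr4. Over the 27025 symbols of the promoter table the median was 7, with quartiles of 3 and 21. Genes with a fold matched that table for 77.9%, so promoter composition was not compared between sets of genes.

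In naive dCD cells most genes lay close to WT. Of 9781 genes 60.5% were within 0.5 of WT on the log2 scale. A gene was called at a difference of at least 2-fold, and 787 genes were higher (8.05%) and 508 lower (5.19%). The median over all genes was 0.13, with quartiles of -0.24 and 0.50, so the whole distribution sat slightly above WT. Centred on that median, the split turned to 567 higher and 638 lower. With the median of housekeeping genes set to 0 it was 574 and 631, so which direction is the more frequent depends on the scaling. Expression levels were not used here, and a large fold can belong to a weakly expressed gene.

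In naive DKO cells 835 genes were higher (8.54%) and 1097 lower (11.2%), around a median of 0.03. With the median of housekeeping genes set to 0, 641 were higher and 1327 lower. Both comparisons use the same naive WT RNA, so their folds are given side by side and are not correlated. The WT value cancels in the difference of dCD and DKO. By that difference 1071 genes were at least 2-fold higher in dCD than in DKO (10.9%) and 548 at least 2-fold lower (5.6%), around a median of 0.08. Genes lower in DKO were thus the larger group in its own comparison, and the direct difference was weighted to genes higher in dCD.

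Chromosome 6 stood apart in dCD and bears on every count. The median fold of its 504 genes was 0.58, against 0.11 for the 9277 genes elsewhere, and from -0.06 to 0.25 on the other autosomes. On chromosome 6 the dCD fold was above 0 for 80.8% of genes, and 21.2% were at least 2-fold higher. Formative dCD libraries gave the same chromosome a median of 0.49, against -0.01 for all others. In naive DKO the median on chromosome 6 was 0.03.

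The shift ran along the whole chromosome. In 8 bins of 20 Mb the naive dCD median lay between 0.49 and 0.97 and the formative dCD median between 0.36 and 0.70. The highest bin was the first, which holds 29 genes. Chromosomes 14 and 17 were low in DKO instead, at -0.22 and -0.26 in naive and -0.10 and -0.16 in formative cells, so that dCD minus DKO had medians of 0.52, 0.34 and 0.36 on chromosomes 6, 14 and 17. What sets these chromosomes apart was not tested. Without chromosome 6, 680 genes were higher and 491 lower in naive dCD, and 958 were higher and 536 lower in dCD than in DKO. Leaving out chromosomes 14 and 17 as well left 831 and 502.

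**Figure D1:**
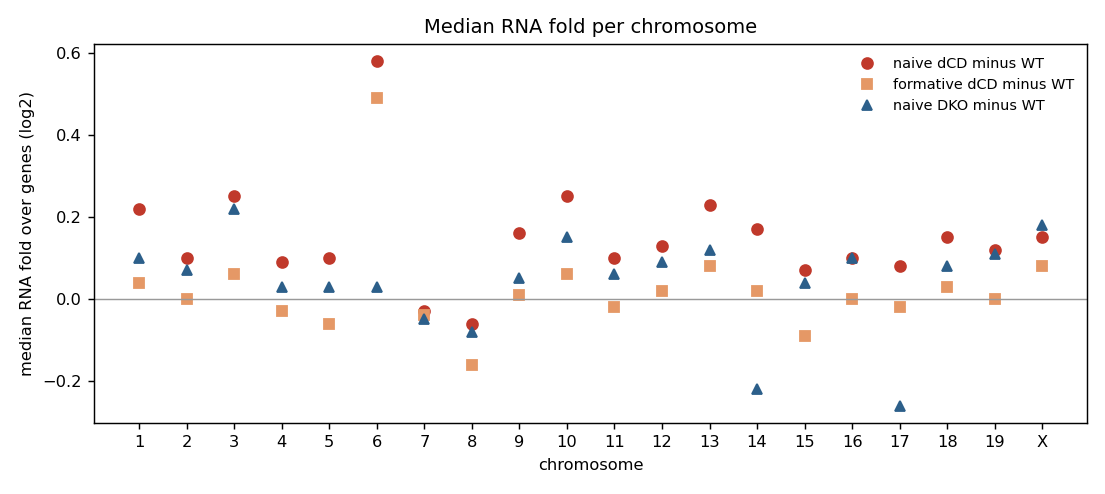
Median log2 RNA fold over the genes of each chromosome, for naive dCD, formative dCD and naive DKO, each minus WT of the same state; chromosome Y, with 3 genes, is left out. Chromosome 6 lies at 0.58 and 0.49 in the dCD comparisons and at 0.03 in naive DKO, and chromosomes 14 and 17 are lowest in DKO.

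Over all 9781 genes the dCD fold ran from -4.14 to 4.09. The lowest were Aass, a lysine degradation gene on chromosome 6, at -4.14, Oas1a at -3.92, Mobp, a myelin gene, at -3.75, Bhmt, encoding a homocysteine methyltransferase, at -3.54 and the pepsinogen gene Pga5 at -3.41. In DKO these were at -3.80, -5.29, -2.02, -3.19 and -2.42. The highest were Peg10 at 4.09, Dab2 at 3.84, Dkk1 at 3.59, Nap1l5 at 3.47 and Cd4, a T cell coreceptor gene, at 3.43, and in DKO they were at 3.91, 2.85, 5.04, 3.67 and -0.33. Peg10, Nap1l5 and Cd4 lie on chromosome 6. Aass, Mobp, Bhmt, Pga5, Nap1l5 and Cd4 were named after their values were seen.

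Among genes with an H3K27ac promoter region above 0 in naive WT, the 10 lowest in dCD ran from -3.92 to -2.15. None of them lies on chromosome 6. Oas1a, an interferon-induced enzyme that makes oligoadenylates, was at -3.92 in dCD and -5.29 in DKO. Its formative minus naive fold in WT was -4.68, and all 3 of these values contain the same naive WT RNA. In the difference of dCD and DKO, which does not, Oas1a was at 1.37. Klk1, encoding a secreted kallikrein protease, was at -2.98 in dCD and -4.37 in DKO, with a difference of 1.39 and a formative minus naive WT fold of -3.56.

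H3K27ac at these genes was measured in WT and DKO cells. At the Oas1a promoter region, chromosome 5 from 120906443 to 120909665, the pooled log2 value was 8.07 in naive WT and 3.84 in naive DKO. At that of Klk1, chromosome 7 from 44224891 to 44225842, it was 8.61 and 4.95. Both promoters, the ones printed above with 3 and 1 CG dinucleotides, were thus over 2-fold lower in acetylation without the proteins. Slc5a11, a sodium-coupled solute transporter gene, was at -2.26 in dCD and -2.96 in DKO, with promoter H3K27ac at -3.23 in DKO. Lst1, a leukocyte transcript of the major histocompatibility region, was at -2.71 and -3.38, with promoter H3K27ac at -1.82.

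Other genes of this group had larger folds in dCD than in DKO. Car3, encoding a carbonic anhydrase, was at -3.40 in dCD and -2.16 in DKO and was also lower in formative dCD, at -1.92. Pramef12 was at -2.99 and -2.26. Cfp, encoding the complement factor properdin, was at -2.15 and -0.69, with promoter H3K27ac at -2.83 in DKO. The transcript Gm36738 was at -2.90 and -1.19.

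Maml2, a coactivator of Notch signalling, was at -2.82 in dCD and -3.64 in DKO, but at 1.37 in formative dCD. Ndufa4l2, encoding a mitochondrial protein induced by low oxygen, was at -2.31 and -2.01. In formative dCD, only Car3 of these 10 genes was at least 2-fold lower, whereas Maml2 and Gm36738 were at least 2-fold higher. The formative comparison shares no library with the naive one. Except for Car3, at 1.89, RNA of each of these genes was lower in formative than in naive WT. Their formative minus naive WT folds ran from -4.68 at Oas1a to -0.67 at Slc5a11, with Pramef12 at -2.08 and Maml2 at -1.78. These folds contain the same naive WT RNA by which the genes were chosen, so the choice favoured negative values. How far the lower RNA in formative WT limits a further fall in formative dCD was not tested.

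The 10 highest in dCD among genes with a promoter region above 0 in naive WT ran from 2.08 to 2.89. Of these, 5 lie on chromosome 6, namely Dyrk4, Mest, Rassf8, Rerg and Pon3. Chromosome 6 holds 186 of the 3588 genes from which the 10 were chosen. Dab2, at 3.84 in dCD, was not among those 3588, because its promoter region was at 0.00 in naive WT, against 10.01 in naive DKO. Dyrk4, encoding a dual-specificity kinase, was at 2.89 in dCD and -0.01 in DKO. Rerg, encoding a small GTPase of the Ras family, was at 2.49 and -0.38. Less the chromosome 6 median, they were at 2.32 and 1.92 in dCD, so both stayed past 2-fold. Mest, an imprinted hydrolase gene, was at 2.70 in naive dCD and 2.20 in formative dCD, against 0.94 and 1.71 in DKO. Rassf8 was at 2.64 in dCD and 1.81 in DKO, and the paraoxonase gene Pon3 at 2.08 and 1.37.

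Off chromosome 6, F5, which encodes coagulation factor V, was at 2.54 in dCD and 2.11 in DKO. H3K27ac at its promoter region, chromosome 1 from 164150927 to 164152190, had a pooled log2 value of 7.06 in WT and 8.49 in DKO. Cbr3, encoding a carbonyl reductase, was at 2.40 and 3.36, and its promoter region on chromosome 16, from 93681996 to 93683005, went from 8.61 in WT to 11.95 in DKO. Anxa3, encoding an annexin, was at 2.48 and 1.20, with promoter H3K27ac at 1.59. Zfp759 was at 2.62 and 1.90 and Snord55 at 2.25 and -1.62. The first belongs to a family of similar zinc finger genes and the second is a small nucleolar RNA within another gene, so their folds are uncertain.

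**Figure D2:**
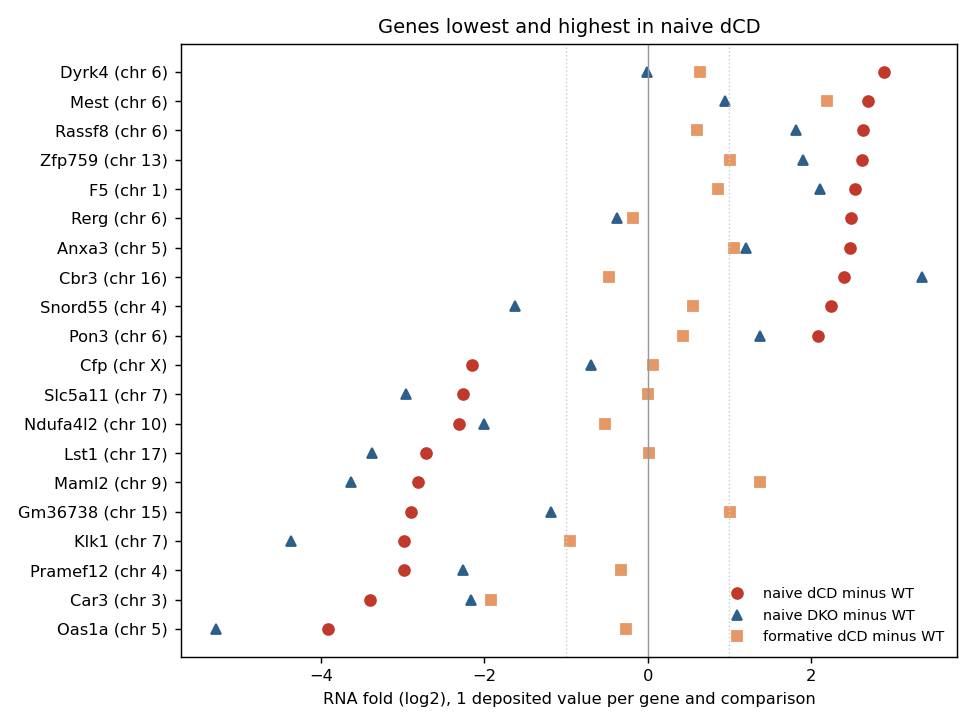
Log2 RNA folds of the 10 lowest and 10 highest genes in naive dCD among those with an H3K27ac promoter region above 0 in naive WT. Naive DKO and formative dCD are beside them, and dotted lines mark 2-fold. The genes were chosen by their naive dCD value, which runs from -3.92 to -2.15 and from 2.08 to 2.89, so how far it lies from 0 is no finding.

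Over all genes dCD minus DKO ran from -5.19 to 6.08. Among genes with an H3K27ac promoter region, the 6 highest were all at least 2-fold lower in DKO, and 2 of them were at least 2-fold higher in dCD. St8sia1, a sialyltransferase gene on chromosome 6, was at 0.99 in dCD and -4.24 in DKO. Smyd1, encoding a muscle lysine methyltransferase and on the same chromosome, was at 0.03 and -4.75. Necab1, encoding a calcium-binding protein, was at 0.19 and -4.10, and Gpr4, a proton-sensing receptor gene, at 0.00 and -3.82. H3K27ac in DKO at regions other than the promoter had medians of -2.85 at St8sia1, -2.87 at Smyd1 and -2.68 at Necab1. At Gpr4 it was 0.38, and its promoter region, whose window is printed above, was at 1.05. None of these 4 genes was 2-fold lower in formative DKO, where they were at 0.30, -0.46, 0.24 and -0.63. Their RNA was already lower in formative than in naive WT, at -4.40, -5.00, -3.10 and -1.38. How far this limits a further fall in formative DKO was not tested.

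The other 2 of the 6 genes highest in dCD minus DKO were Snord55, at 3.86, and 2410141K09Rik, at 3.81. The latter was at 1.54 in dCD and -2.27 in DKO, and reads of similar zinc finger genes may be shared with it. Its promoter H3K27ac was at -3.90 in DKO.

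Among genes with a promoter region above 0 in naive WT, the 6 lowest in dCD minus DKO were all at least 2-fold higher in DKO. Choosing them by that difference favours a high DKO fold. Of the 6, 1 gene, Fosl2, was also at least 2-fold higher in dCD. Fabp5, encoding a fatty acid binding protein, was at 0.10 in dCD and 3.24 in DKO, and its promoter H3K27ac was at 5.57 in DKO. That promoter had a low pooled log2 value in naive WT, 2.75, against 8.32 in naive DKO, so the size of its difference is uncertain. Fosl2, an AP-1 subunit, was at 1.34 and 4.52, with promoter H3K27ac at 3.95. Tmem47 was at -1.69 and 1.77, and Spp1, which encodes the secreted protein osteopontin, at -1.75 and 1.11. Padi4, encoding a peptidylarginine deiminase that acts on histones, was at -0.64 and 2.52. Rpl30 was at -0.39 and 2.92, but ribosomal protein genes have many processed copies and their counts are uncertain.

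Counts of called genes in the lists that follow stand beside the shares over all genes. These were 8.05% higher and 5.19% lower in dCD, 8.54% and 11.2% in DKO, and 10.9% and 5.6% in dCD minus DKO. Lists are small, and no count was tested against these shares. In the naive pluripotency list 21 of 24 genes had a fold, and in dCD none was higher and 2 were lower, Spp1 and Esrrb, an orphan nuclear receptor at -1.25. The list median was -0.23, against 0.13 over all genes. In DKO 3 were higher and 3 lower, with a median of -0.57. Klf2, a Krüppel-like factor of the naive network, was at -0.87 in dCD and -0.77 in DKO, and Nr5a2 at -0.80 and -0.76. Nanog was at 0.52 and 0.41 and Dppa3 at 0.57 and 1.37. These last genes are the list's 2 members on chromosome 6, and without them the dCD median was -0.33.

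All 15 core pluripotency genes had a fold, and in dCD none was called. Pou5f1, which encodes Oct4, was at -0.11 and Sox2 at -0.61. Their median was -0.06 in dCD and -0.51 in DKO, where 3 genes were lower. Utf1, a chromatin-bound factor of undifferentiated cells, was at -0.46 in dCD and -2.72 in DKO, Dppa2 at 0.41 and -2.54, and Dppa5a at -0.16 and -1.42. By dCD minus DKO these 3 were at 2.26, 2.95 and 1.26, the list's only calls.

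In the formative pluripotency list 20 of 25 genes had a fold, and in dCD 1 was higher and 2 lower, against 2 and 8 in DKO. Dnmt3l, a cofactor of de novo DNA methylation, was low in each comparison, at -1.27 in naive dCD, -3.53 in naive DKO, -1.07 in formative dCD and -2.01 in formative DKO. Its promoter H3K27ac was at -2.90 in DKO. Bmp4, encoding a secreted growth factor, was at -1.47 and -2.70, and the transcription factor gene Sox4 at 1.92 and 2.37 in naive dCD and DKO. Sox3 was at 0.83 and -1.91. The list medians were 0.04 in dCD and -0.31 in DKO, and by dCD minus DKO 7 genes were higher and 1 lower.

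ERK is the kinase whose activation by MEK is blocked in common naive media. Of 13 ERK response genes with a fold, 1 was higher and none lower in dCD, while none was higher and 5 lower in DKO. Dusp6, a phosphatase that acts on ERK, was at 0.96 in dCD and -1.40 in DKO. Spry4, a feedback inhibitor of the pathway, was at 0.15 and -2.24, Etv4 at 0.58 and -1.25 and Etv5 at -0.14 and -1.24. Spry2 was at -0.84 and -1.53. Spred2 was the gene called higher in dCD, at 1.00, and Phlda1 was at 0.88 in dCD and 0.75 in DKO. The medians were 0.53 in dCD and -0.35 in DKO, and in formative dCD the list was at -0.43.

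LIF/STAT3 response genes lay near the overall median, with 1 of 14 called higher in dCD and none lower, and a median of 0.11. The gene was Sgk1, a serine kinase, at 1.27 in dCD and 1.26 in DKO. Klf4 was at 0.55 in dCD and 1.85 in DKO, Gbx2 at -0.53 and -2.20 and Junb at 0.70 and 0.82. In DKO 2 were higher and 1 lower, with a median of -0.12.

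Wnt/beta-catenin response genes went both ways, with 4 of 14 higher and 2 lower in dCD around a median of 0.18. Dkk1, a secreted Wnt inhibitor, was at 3.59 in dCD and 5.04 in DKO. Rnf43, a ubiquitin ligase that removes Wnt receptors, was at 2.72 and 0.72. Notum, an enzyme that inactivates Wnt ligands, was at -2.24 and 0.66, and Ccnd1, encoding cyclin D1, at -1.39 and 0.91. Among these feedback inhibitors the values therefore lay on both sides of WT in dCD. DKO had 3 higher and 1 lower, with a median of 0.41, and dCD minus DKO had 3 higher and 5 lower.

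Of 10 Nodal/Activin genes 2 were lower in dCD and none higher, and both are Lefty genes, which encode secreted inhibitors of Nodal. Lefty2 was at -1.99 in dCD and 2.70 in DKO, a difference of -4.69 and the widest of any list gene, and Lefty1 at -1.02 and 0.85. In formative dCD they were at 1.19 and 0.83. Nodal itself was at -0.06 in naive dCD, and the receptor genes Acvr2a and Acvr1b at 0.77 and 0.25. The list median was 0.02 in dCD and 0.30 in DKO. H3K27ac in DKO at regions other than the promoter was at -1.21 for Lefty2 and -1.35 for Lefty1, so its direction in DKO was opposite to that of their DKO RNA. Of 11 BMP and Id genes Bmp4 alone was called in dCD. Id1, encoding an inhibitor of basic helix-loop-helix factors, was at 0.80 in dCD and 0.09 in DKO, Id2 at 0.68 and 2.11 and the receptor gene Bmpr1a at 0.71 and 0.30, with list medians of 0.56 and 0.24. In DKO 2 of these were higher and 1 lower.

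Markers of other cell types included genes higher in dCD. Of 9 trophoblast genes with a fold, of 14 in the list, 5 were higher and 1 lower, with a median of 1.03. Centred on the all-gene or on each chromosome's median, 4 were higher, without Krt8. The simple epithelial keratin genes Krt18, Krt7, Krt19 and Krt8 were at 2.32, 1.77, 1.35 and 1.03 in dCD and at 2.95, 3.29, 1.94 and 1.71 in DKO. Gata2, on chromosome 6, was at 2.07 and 2.79, and Ascl2 at -1.41 and -1.09. In DKO 5 were higher and 2 lower, with a median of 1.71. The defining trophoblast genes Cdx2, Elf5 and Eomes have no fold in the table, so the lineage itself is not identified by these values.

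Of 10 primitive endoderm genes 4 were higher and 1 lower in dCD, with a median of 0.67, against 5 and 0 and a median of 0.56 in DKO. Centred on the all-gene median 3 were higher in dCD, without Col4a1, and centred on each chromosome's median 3, without Foxq1. Dab2, an endocytic adaptor of that lineage, was at 3.84 in dCD and 2.85 in DKO. The lineage factor gene Gata6 was at 1.95 and 1.05 and Foxq1 at 1.21 and 1.76. Lama1, a laminin chain gene, was at -1.47 and -0.14. Gata4, Sox17, Sox7 and Pdgfra have no fold in the table. In formative dCD the medians of the trophoblast and primitive endoderm lists were 0.34 and -0.04. Levels per library were not used here, so no share of other cells can be given. A difference in the number of cells of a type and a difference in RNA per cell cannot be told apart. The part of such cells in the other results was not tested.

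Primed and mesendoderm genes had 2 of 7 higher and none lower in dCD, with a median of 0.49, against 2 and 1 and 0.56 in DKO. Wnt3 was at 1.28 in dCD and 4.11 in DKO, Cdx1 at 1.18 and -1.11, Mixl1 at 0.92 and 1.06 and Hand1 at 0.49 and 0.56. In formative dCD that list was low, with a median of -1.40. Wnt3, T and Evx1 were at -2.28, -2.61 and -3.27 there, and were also low in the other formative mutants. They were at -2.04, -3.23 and -2.73 in formative DKO and at -1.58, -1.68 and -4.20 in formative CKO. Mixl1 was at -1.40, -1.36 and -0.29 in formative dCD, DKO and CKO. Cdx1, Hand1 and Gsc were 2-fold lower in none of these comparisons. Of 4 neural and ectoderm genes 1 was lower in dCD, the tubulin gene Tubb3 at -1.12, and the others were Sox1 at 0.98, Zic1 at 0.40 and Nes at -0.23. The median was 0.09 in dCD and 0.69 in DKO, where 2 were higher. Of 4 fibroblast feeder genes Col1a2, a collagen gene on chromosome 6, was at 1.58 in dCD, Twist1 at 0.95, Thy1 at -2.05 and Vim at -1.51. The dCD median of these was -0.28, or -1.51 without Col1a2, and the DKO median 0.19, with 1 gene higher in DKO and none lower.

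The germline and 2-cell-like list differed most between dCD and DKO, though 5 of its 12 genes had a fold. In dCD 1 gene was higher and none lower, with a median of 0.34, and in DKO none was higher and 4 lower, with a median of -3.09. Dazl, an RNA-binding protein of germ cells, was at 0.34 in dCD and -3.09 in DKO. Sycp3, a protein of the meiotic chromosome axis, was at 1.05 and -2.30. Zscan4c was at -0.83 and -3.26 and Tcstv3 at -0.76 and -3.30, and both have near-identical copies, so their folds are uncertain. Stk31, on chromosome 6, was at 0.73 and 0.25, and without it the dCD median was -0.21. The same 4 genes were higher in dCD than in DKO by the direct difference, from 2.44 to 3.43.

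Imprinted genes, which are expressed from 1 parental allele, had 3 of 8 higher in dCD and none lower, with a median of 0.78. Peg10, a retrotransposon-derived gene on chromosome 6, had the highest dCD fold of all 9781 genes, at 4.09, and was at 3.91 in DKO. It was at 2.09 and 1.87 in formative dCD and DKO. Mest, on the same chromosome, is given above. Impact was at 1.07 in dCD and 1.05 in DKO, and Ndn at -0.90 and 0.94. DKO had 2 higher and none lower, with a median of 0.88. The other 13 genes of the list have no fold in the table.

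Chromatin regulators stayed under 2-fold in dCD. None of the 12 measured genes for the MLL3/4 complex and other H3K4 methylation enzymes was called in dCD, against 2 lower in DKO, Kmt2c and the demethylase gene Kdm5b. Kdm5b was at -0.56 in dCD and -1.14 in DKO, Wdr5, a shared core subunit, at -0.46 and -0.83, and Kdm5a, on chromosome 6, at 0.73 and 0.14. The medians were -0.13 and -0.33. Among 11 H3K27 acetylation and deacetylation genes none was called in dCD, with a median of 0.38. Ep300, encoding p300, was at 0.54, Sirt1 at 0.52, Med12 at 1.00 and Kat2b at 0.70 in dCD, against 0.38, 0.01, 1.07 and -1.55 in DKO. DKO had 2 higher and 1 lower around 0.01. Among 12 Polycomb genes none was called in either, with medians of 0.11 and -0.08. Ezh2, the H3K27 methyltransferase gene on chromosome 6, was at 0.94 in dCD, Cbx2 at -0.47, Ring1 at 0.42 and Jarid2 at 0.38.

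The remaining lists cover adhesion, metabolism, the cell cycle and housekeeping. Of 14 cell adhesion and matrix genes 3 were higher in dCD, the integrin gene Itga6 at 1.31, Cldn7 at 1.14 and the tight junction gene Tjp1 at 1.08, and 1 was lower, Cldn3 at -1.15. Their medians were -0.24 in dCD and -0.24 in DKO, where 1 was higher and 2 lower. Of 14 glycolysis genes none was called in dCD, with a median of 0.05, or -0.21 without the 4 on chromosome 6. These include Gapdh at 0.96 and the glucose transporter gene Slc2a3 at 0.89, whereas Slc16a3 was at -0.66 and Pkm at -0.55. DKO had 1 higher and 3 lower, with a median of -0.32. Of 10 cell cycle and p53 genes Ccnd1 alone was called in dCD, with a median of 0.38. Cdkn2b was at 0.81, Ccnd3 at 0.51 and Cdkn1b, on chromosome 6, at 0.62, or 0.04 less that chromosome's median. In DKO 1 of the 10 was higher and none lower, around 0.35. Of 14 housekeeping genes none was called in dCD, with a median of 0.12 and Tfrc at -0.73 and Hprt at 0.54, against 0 higher and 1 lower in DKO around 0.15.

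**Figure D3:**
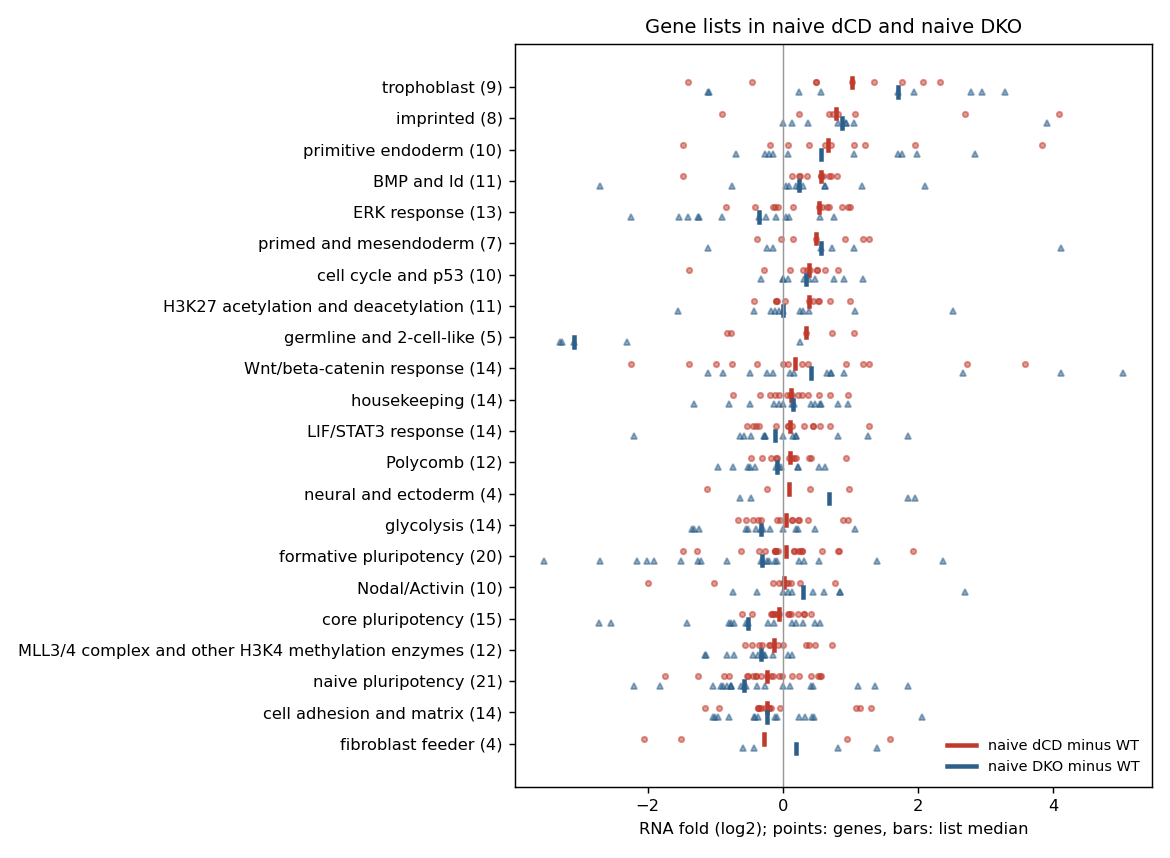
Log2 RNA folds of the genes of each list in naive dCD (circles) and naive DKO (triangles), with list medians as bars and the number of genes with a fold in brackets. The trophoblast list is highest in dCD at 1.03, and the germline and 2-cell-like list shows the widest gap, 0.34 in dCD and -3.09 in DKO.

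The sign of a list median close to 0 depends on the scaling. Relative to the all-gene dCD median, the formative list was at -0.08, the LIF/STAT3 list at -0.01, the Nodal/Activin list at -0.10, the neural list at -0.04, the Polycomb list at -0.01 and the glycolysis list at -0.07. No direction is given for these 6 lists. On the same scale 6 list genes called higher fell under 2-fold, namely Spred2 at 0.88, Krt8 at 0.91, Col4a1 at 0.92, Sycp3 at 0.93, Impact at 0.95 and Tjp1 at 0.96. Ndn, Cdh3 and Nkd1 became 2-fold lower, at -1.02, -1.07 and -1.12. Relative to each gene's own chromosome median, the Wnt/beta-catenin list was at -0.14 as well.

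RNA in dCD was then set against H3K27ac at the same genes. Acetylation was summarised per gene as the median of DKO minus WT over its promoter regions, available for 3581 genes, and over its other regions within 100 kb, available for 9207. At promoters 227 genes were at least 2-fold lower in H3K27ac and 1108 at least 2-fold higher in DKO. With promoters scaled to a median of 0 these numbers were 461 and 499, and after quantile normalization 181 and 1321, so class sizes depend on the scaling. Of the 227 genes, 14.5% were 2-fold lower in dCD RNA and 34.8% in DKO RNA. Among the 1108 these shares were 1.4% and 3.6%. The dCD medians were -0.09, 0.15 and 0.19 over the lower, between and higher classes, and the DKO medians -0.46, 0.02 and 0.21.

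Away from promoters the pattern was similar. The classes held 1560 lower and 1191 higher genes as deposited, 3038 and 476 scaled to promoters, and 1233 and 1618 after quantile normalization. Among the 1560 genes with H3K27ac at least 2-fold lower in DKO, 13.4% were lower in dCD RNA and 8.8% higher, against 27.1% and 8.1% in DKO RNA. Over all genes 5.19% were lower in dCD and 11.2% in DKO, as given above. Among 1191 genes with H3K27ac at least 2-fold higher, 3.4% were lower and 11.3% higher in dCD, against 6.0% and 16.9% in DKO. The median dCD fold went from 0.00 in the lower class through 0.13 to 0.21 in the higher class, and the DKO median from -0.32 through 0.05 to 0.26. Thus the lower-minus-higher gap was -0.21 in dCD and -0.58 in DKO.

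**Figure D4:**
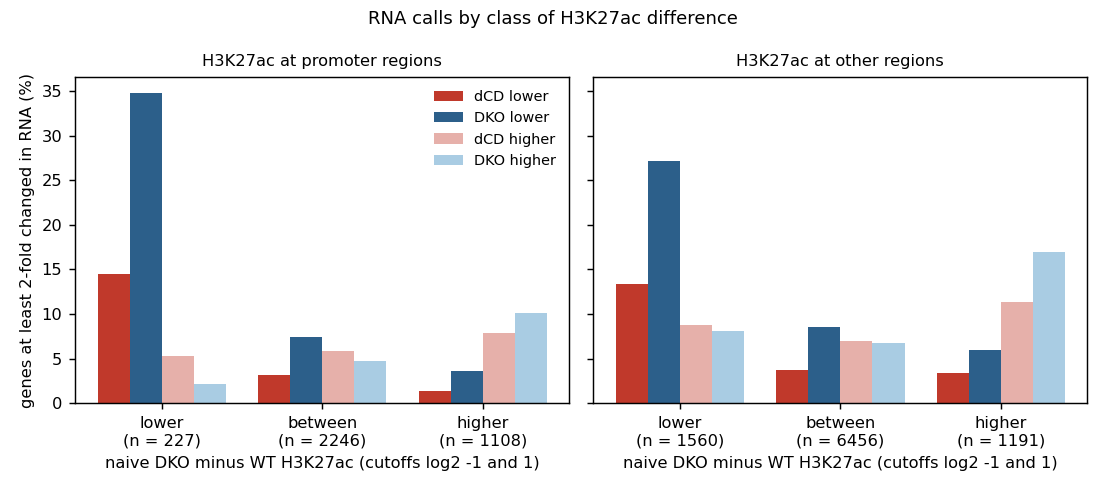
Share of genes at least 2-fold lower or higher in RNA in naive dCD and naive DKO, by whether H3K27ac at the gene's promoter regions (left) or other regions within 100 kb (right) was at least 2-fold lower, between or at least 2-fold higher in naive DKO than WT. At promoters of the lower class 14.5% of genes were lower in dCD and 34.8% in DKO.

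Read from the RNA side, the 508 genes lower in dCD had a median H3K27ac difference of -0.78 at other regions in DKO, and 43.0% of the 486 with a value were at least 2-fold lower, against 16.9% of all genes. For the 787 genes higher in dCD the median was 0.05, and of the 727 with a value 138 were lower and 134 (18.4%) higher in H3K27ac, against 16.9% and 12.9% of all genes. Genes higher in dCD than in DKO by the direct difference had a median of -0.56, and 32.9% of them were lower in H3K27ac. Genes at least 2-fold lower in dCD than in DKO had a median of 0.03, with 20.0% lower and 20.0% higher. Chromosomes differed in H3K27ac as well. The median DKO difference over regions was -0.49 on chromosome 6, -0.46 on 8, -0.79 on X and -1.17 on Y, against -0.11 over all. Chromosome 6 holds 113 of the 1071 genes higher in dCD than in DKO. Without it the lower-minus-higher gap at other regions was -0.22 in dCD and -0.58 in DKO. The part of whole-chromosome shifts in these shares was not tested.

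Spearman's rho across 9207 genes between H3K27ac at other regions and RNA was 0.12 for dCD and 0.25 for DKO. At 3581 promoters it was 0.11 and 0.26. Genes are not independent replicates and share libraries, so these values describe the table and carry no test. H3K4me1, also measured in DKO and in libraries outside the series, gave 0.12 and 0.26. In the 678 genes whose H3K4me1 at other regions was at least 2-fold lower in DKO, 15.6% were lower in dCD RNA and 31.4% in DKO RNA, with medians of -0.04 and -0.49.

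The formative libraries give a second reading of dCD with another WT. Formative dCD had 462 genes higher (4.72%) and 354 lower (3.62%), formative DKO 574 (5.87%) and 494 (5.05%), and formative CKO 356 (3.64%) and 468 (4.78%). Of the 787 genes higher in naive dCD, 15.9% were also at least 2-fold higher in formative dCD and 4.1% at least 2-fold lower, with a median of 0.35. In formative DKO these genes were higher for 19.8% and lower for 8.1%, with a median of 0.41, and in formative CKO for 8.0% and 8.1%, with a median of 0.15.

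Of the 508 genes lower in naive dCD, 12.0% were lower and 3.3% higher in formative dCD, with a median of -0.28. The values were 15.4% and 4.5% in formative DKO and 11.0% and 3.9% in formative CKO. Without chromosome 6, the share of genes higher in naive dCD that were also higher in formative dCD was 13.5% of 680, and the median 0.29. The formative background off chromosome 6 was 4.1%. Across all 9781 genes Spearman's rho of naive with formative dCD was 0.29, or 0.27 without chromosome 6, and it was 0.28 for naive dCD with formative DKO and 0.17 with formative CKO. The sources used here do not say whether naive and formative cells came from the same clones.

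**Figure D5:**
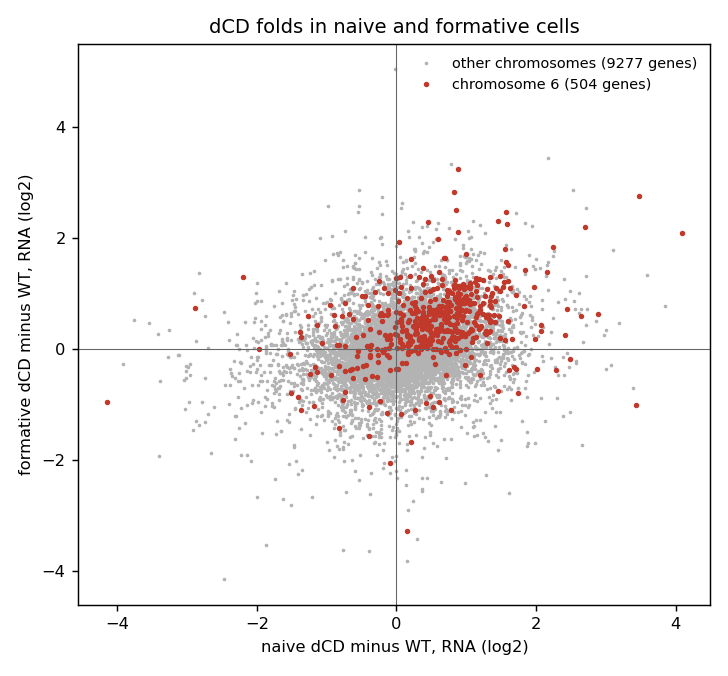
Log2 RNA fold of dCD minus WT in naive (horizontal) and formative (vertical) cells, 1 point per gene, with the 504 genes of chromosome 6 in red and the other 9277 in grey. Genes of chromosome 6 centre on 0.58 and 0.49, and the others on 0.11 and -0.01.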

How the data were processed

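H3K27ac was profiled in 8 libraries, and the deposited table has 112137 rows, 1 per region, and 47 columns (mm10). The submitters' processing notes name Bowtie2, DiffBind, SEACR, deepTools and Trim Galore without a version or a role. Pooled log2 values of H3K27ac, log2(value + 1), were deposited by the authors for each group, without replicates. The RNA and H3K4me1 values are the authors' deposited log2 folds, of libraries outside the series. The 12 columns of RNA and H3K4me1 levels of those libraries were not used, so dCD minus WT was taken from the fold column and not from levels. Deposited distances to the transcription start site and region widths are other values, per the file headers.

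Folds were exact differences (largest gap 1.3e-06), so dCD minus DKO is the difference of the folds. A gene took the median over its rows, which differed by at most 5.0e-07. Genes were called at an absolute log2 difference of 1. No test could be made, because each comparison has 1 value per gene. H3K27ac per gene used regions above 0 in both naive groups, the promoter label and a window of 100 kb. The nearest gene in the table need not be the gene a region acts on. Pooled H3K27ac falls with region width, so differences within a region were used.

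The members and the 22 gene lists were chosen with earlier results of these data known. The naming rule took Kmt2c and Kmt2d. Among genes with a promoter region above 0 in naive WT it added the 10 highest and 10 lowest by dCD and the 6 highest and 6 lowest by dCD minus DKO. It also took up to 4 genes per list with the largest absolute dCD fold. Other list genes, and what concerns chromosomes, H3K4me1 and formative cells, were chosen after the values were seen. Promoter motifs for 7 factors and a list of interferon genes were also examined and are not reported. Alternatives were other thresholds, centring, gene filters and H3K27ac summaries. Gene positions are from GENCODE vM21 and promoters from RefSeq, both on GRCm38. Python 3.11.15, pandas 2.3.3 and scipy 1.17.1 were used, and the scripts were tested on simulated data.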

Additional observations from a re-analysis of the deposited data

How the results depend on the processing

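The number of called genes in dCD, DKO and dCD minus DKO, 1295, 1932 and 1619, was 3220, 3708 and 3324 at 1.5-fold, 165, 518 and 366 at 4-fold, and 354, 514 and 445 of the 3588 genes with a promoter region above 0. At 4-fold the dCD calls were 74 higher and 91 lower. The other alternatives, namely both centrings, the first row of a gene, and, added after the values were seen, leaving out chromosome 6 and centring on each chromosome, stayed within 1.5 times. They moved the share of higher calls in dCD from 60.8% to between 44.5% and 60.8%. The gap in median RNA between genes with lower and with higher H3K27ac at other regions, -0.21 in dCD and -0.58 in DKO, was -0.33 in dCD at a 4-fold class limit. With the region of highest mean value per gene it was -0.13 and -0.30. The sign was negative under each alternative run, promoter regions included. Of 115 genes named by rule, 110 kept their side of 2-fold under either centring on 1 median, and 108 under centring on each chromosome; Spred2, Sycp3 and Impact fell under 2-fold in each, Tjp1 under either centring on 1 median and Foxq1 (1.21 to 0.98) under centring on each chromosome. No called gene among them changed sign. No paired analysis was possible because the table holds 1 pooled or compared value per group, with no replicate columns.

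No value has a replicate check, depth is unknown, and expression levels were not used. Genes missing from the table were not analysed here. H3K27ac was measured in WT and DKO, so its relation to dCD RNA joins different cells.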
